A study of Trichoderma reesei with 2 samples.

Results

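The 433 gene models of scaffold 7, among 9129 in the deposited table, are described here in hyphae of Trichoderma reesei strain HJ48 grown for 4 days in ethanol fermentation. A model was placed on scaffold 7 by the scaffold number in its name, and no measured value entered that step. The scaffold itself was chosen by its measured ratios: of all scaffolds with 100 or more compared models it held the largest share of models higher in the anaerobic-titled library. Every ratio between the libraries was therefore used in the choice, and the values below are a description without a test. The series holds 2 RNA libraries, 1 titled anaerobic and 1 titled aerobic, each from hyphae of the same strain and age. The condition field of each library states the opposite of its title, so the libraries are called by title and no direction is assigned to oxygen supply. Reads recovered from the deposited values added up to 8082008 in the anaerobic-titled library and 7392335 in the aerobic-titled library, so their depths were alike. With 1 library on each side there is no replicate check, and culture, extraction and sequencing differences cannot be told apart from the condition.

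T. reesei is a filamentous fungus known for secreting cellulases, and under low oxygen it can turn sugars into ethanol by way of pyruvate and acetaldehyde. A scaffold is a stretch of assembled genome sequence, usually a piece of a chromosome. In fungi, genes that lie side by side can be transcribed together, as is known for secondary metabolite clusters, and the T. reesei genome is known to hold many of its carbohydrate-degrading enzymes in clusters. The files pair no identifier with a gene symbol or product, and none was found in the table of QM6a genes (0 of 9129), so no function is given to any model. The prefix of a name tells how the model was made: fgenesh models were predicted from the genome sequence, gw1 models were built from protein similarity with Genewise, and the estExt prefix marks models extended with expressed sequence tags. Models made in the same way form a track, with its own numbering on each scaffold. In the e_gw1 track of scaffold 7, numbers largely followed the model length recovered from the values, so they need not follow position. Length was 4830 bp at number 15, 109 bp at number 509 and 8934 bp at number 515.

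Scaffold 7 stood out mainly by its levels in the anaerobic-titled library. Levels are in FPKM, fragments scaled by model length and library size, which lets models of different length be compared. Over all 433 models the median was 8.64 FPKM in the anaerobic-titled library and 20.5 FPKM in the aerobic-titled library. The 8696 models of the other scaffolds had medians of 3.50 and 22.6 FPKM in the same libraries. The median of scaffold 7 was thus 2.47 times that of the other scaffolds in the anaerobic-titled library, and 0.907 times in the aerobic-titled library. Under another scaling of the libraries these 2 ratios do not change, because each is taken within 1 library.

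Against the other scaffolds pooled, the difference in the anaerobic-titled library was, as a ratio, larger at the low end of the levels. There, the 10th percentile was 0.489 FPKM on scaffold 7 and 0.0784 FPKM on the other scaffolds, and the 25th percentile was 1.77 and 0.626 FPKM. The 75th percentile was 34.8 FPKM on scaffold 7 and 17.8 FPKM on the others, and the 90th percentile was 112 and 84.6 FPKM. The pooled low end covers a wide spread. On scaffold 7, 18.2% of models were under 1 FPKM in the anaerobic-titled library. Among the other 27 scaffolds with 100 or more compared models, this share ran between 14.9% on scaffold 26 and 58.9% on scaffold 15. Its median over them was 26.1%. Scaffolds 14, 16, 21, 23, 26 and 27 lay below scaffold 7, so a low share was not particular to scaffold 7. In the aerobic-titled library, the 10th percentile was alike, at 0.498 FPKM on scaffold 7 and 0.493 FPKM on the others. The 75th percentile there was 52.7 FPKM on scaffold 7 and 62.8 FPKM on the others, and the 90th percentile was 107 and 158 FPKM. The curves of the level distributions show scaffold 7 above the rest over most of the range in the anaerobic-titled library. In the other they lie close together and cross at both ends.

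**Figure D1:**
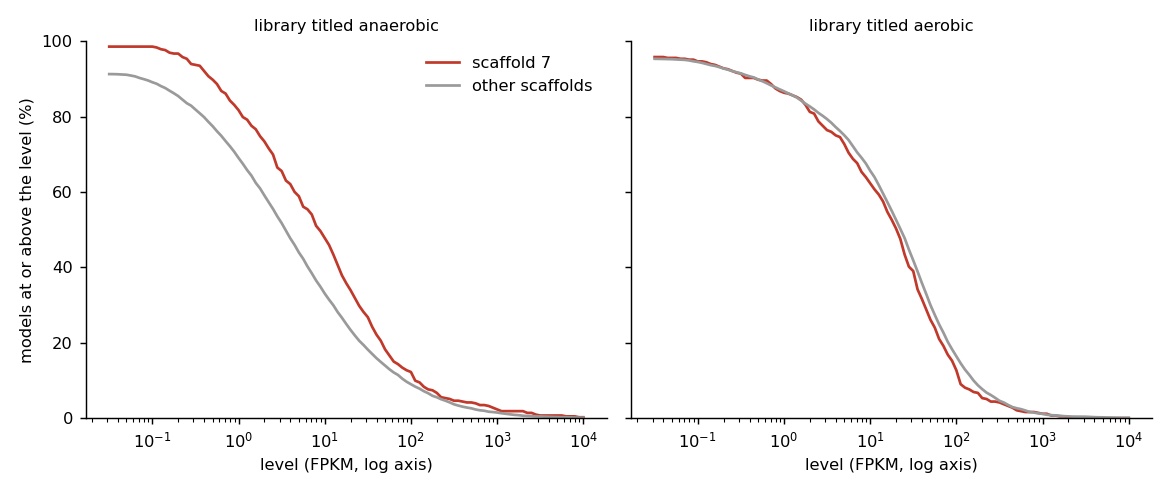
Share of gene models (%) at or above a level (FPKM, log axis) in the anaerobic-titled library (left) and the aerobic-titled library (right), for the 433 models of scaffold 7 (red) and the 8696 models of the other scaffolds (grey). At 10 FPKM the curves stand at 47.8% for scaffold 7 and 33.1% for the others in the anaerobic-titled library, and at 62.4% and 65.7% in the aerobic-titled library.

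Few models of scaffold 7 were listed at 0 in the anaerobic-titled library. They numbered 6 of 433 (1.39%), against 748 of 8696 (8.60%) on the other scaffolds, and in the aerobic-titled library 18 of 433 (4.16%), against 401 of 8696 (4.61%). The pooled 8.60% covers a wide spread: among the other 27 scaffolds with 100 or more compared models, the share at 0 in the anaerobic-titled library had a median of 4.69% and ran between 1.33% on scaffold 13 and 23.2% on scaffold 15. Scaffold 7 was therefore near the low end of that range, and not alone there. Lengths recovered from the values were alike, with a median of 1093 bp over the compared models of scaffold 7 and 1104 bp over those of the others. For a model of the scaffold's median length, a count of 0 allows a level of up to 0.309 FPKM in the anaerobic-titled library and 0.338 FPKM in the aerobic-titled library, for counting error only.

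More models of scaffold 7 were nonetheless lower than higher in the anaerobic-titled library. Ratios were taken as anaerobic-titled over aerobic-titled after adding 1 FPKM and taking log2, so that ratios of low models are understated, for models that reached 1 FPKM in at least 1 of the libraries. This left 403 of the 433, as 30 did not reach the limit, and 3 of those were listed at 0 in both libraries. Of the 403, 106 (26.3%) were at least 2-fold higher in the anaerobic-titled library, 197 (48.9%) were at least 2-fold lower and 100 (24.8%) lay within 2-fold. Over all 8197 compared models of the table, 13.0% were higher and 66.0% lower. At a 4-fold threshold, 62 of the 403 were higher and 131 lower on scaffold 7, with 6.89% higher and 47.2% lower over the whole table. As the scaffold was picked on this contrast, nothing is read from these shares. The counting interval (95%, exact) of the plain ratio, or the bound that 0 reads allow, lay above 1 for 105 of the 106 higher models and below 1 for 196 of the 197 lower ones. These models were called at 2-fold on the same values, so the intervals add no separate support, and they cover counting error only.

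The median log2 ratio was -0.93 on scaffold 7 and -1.89 on the other scaffolds. Among the 27 other scaffolds it ran between -2.60 on scaffold 25 and -1.17 on scaffold 27. The sign of the scaffold's median depends on the scaling of the libraries. TMM scaling (a trimmed mean of the log2 ratios set to 0) raised ratios of FPKM by 2.16 and turned the median of scaffold 7 to 1.03, beside -0.21 on the other scaffolds. With it, 204 models of scaffold 7 (50.6%) were at least 2-fold higher, against 32.9% of all compared models. The distance between scaffold 7 and the rest was 0.95 as deposited and stayed between 0.63 and 1.29 over the 9 settings tried. By share of higher models the next scaffold was number 27, with 21.9%.

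**Figure D2:**
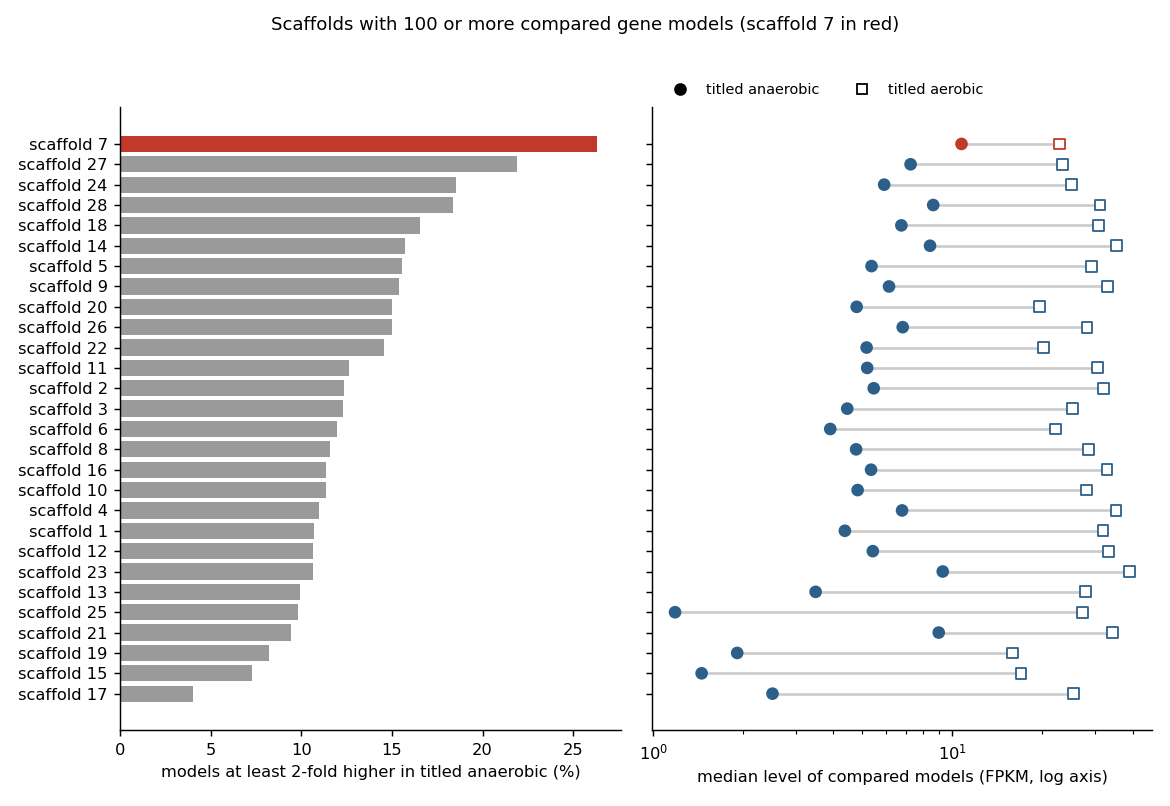
Left, share of compared gene models at least 2-fold higher in the anaerobic-titled library (%), for the 28 scaffolds with 100 or more compared models, sorted by that share. Right, median level of those models (FPKM, log axis) in the anaerobic-titled library (filled circles) and the aerobic-titled library (open squares). Scaffold 7 (red) has the highest median in the anaerobic-titled library, 10.7 FPKM, and ranks 23 of 28 in the aerobic-titled library, at 22.8 FPKM.

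Across scaffolds, the median level of the compared models varied more, as a ratio, in the anaerobic-titled library. It ran between 1.18 FPKM on scaffold 25 and 10.7 FPKM on scaffold 7 there, and between 15.9 FPKM on scaffold 19 and 39.2 FPKM on scaffold 23 in the aerobic-titled library. After scaffold 7, the highest median in the anaerobic-titled library was 9.29 FPKM on scaffold 23. That scaffold also had the highest median in the aerobic-titled library, and only 10.6% of its models were higher in the anaerobic-titled library. On scaffold 23, a high median in the anaerobic-titled library thus did not go with a high share of higher models. Scaffolds 25 and 15, with the lowest medians there (1.18 and 1.45 FPKM), had low shares as well, at 9.82% and 7.27%.

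The larger share of higher models was present in every class of level. When models were classed by the higher of their 2 values, 23 of 90 models of scaffold 7 between 1 and 10 FPKM (25.6%) were higher in the anaerobic-titled library, against 189 of 1768 (10.7%) on the other scaffolds. Between 10 and 100 FPKM the numbers were 47 of 230 (20.4%) and 339 of 4268 (7.94%). Between 100 and 1000 FPKM they were 28 of 72 (38.9%) and 338 of 1570 (21.5%). At 1000 FPKM or more they were 8 of 11 and 92 of 188 (48.9%). These counts break the same contrast into classes and add no independent support.

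The same contrast was broken down by track, which again adds no independent support. Of the 9 tracks, the median log2 ratio was higher on scaffold 7 than on the other scaffolds in 9, and the share of higher models in 8. The exception was the estExt_Genewise1 track, with 1 of 16 models higher on scaffold 7 and 47 of 407 on the others. Among unextended fgenesh5_pg models, 39 of 109 (35.8%) were higher on scaffold 7, against 286 of 1713 (16.7%) elsewhere. Among e_gw1 models, 26 of 112 (23.2%) were higher, against 250 of 2143 (11.7%). The fgenesh5_pg models made up 27.0% of the compared models on scaffold 7 and 22.0% elsewhere. With the track mix of scaffold 7, the other scaffolds would show 12.6% higher, beside the 12.3% they had. Without the fgenesh5_pg models, the median log2 ratio was -1.21 on scaffold 7 and -2.01 on the other scaffolds. Of the 294 models then left on scaffold 7, 67 (22.8%) were higher, against 11.1% on the others.

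Higher and lower models of the scaffold differed in both libraries. The 106 higher models had a median of 41.8 FPKM in the anaerobic-titled library and 5.03 FPKM in the aerobic-titled library. The 197 lower models had medians of 3.89 and 33.7 FPKM, and the 100 models within 2-fold had 15.2 and 17.9 FPKM. On the other scaffolds, the 958 higher models were more abundant than those of scaffold 7, with medians of 77.6 and 11.2 FPKM. The 5214 lower models there had medians of 2.53 and 33.2 FPKM.

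**Figure D3:**
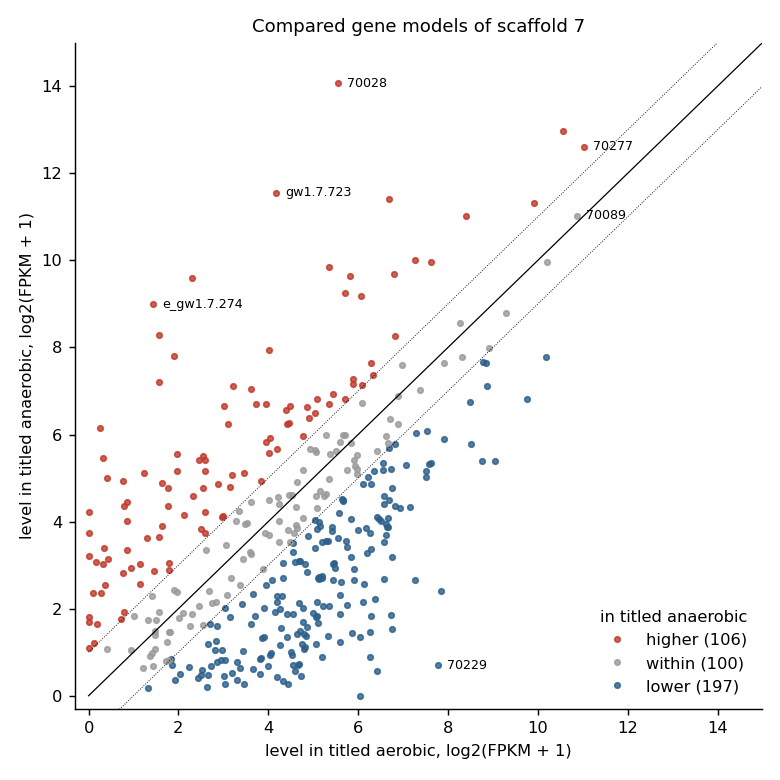
Level of each of the 403 compared gene models of scaffold 7 in the anaerobic-titled library (vertical) and the aerobic-titled library (horizontal), both as log2(FPKM + 1). The solid line marks equality, the dotted lines 2-fold, and colours the 106 higher (red), 100 within (grey) and 197 lower (blue) models; a few named models carry a short form of their identifier.

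Scaffold 7 held 4.74% of the gene models, 7.25% of the summed FPKM of the anaerobic-titled library and 2.95% of that of the aerobic-titled library. Its 10 most abundant models made up 72.2% of its sum in the anaerobic-titled library and 39.2% in the aerobic-titled library. The most abundant was estExt_fgenesh5_pg.C_70028, with 17135 FPKM in the anaerobic-titled library and 46.1 FPKM in the aerobic-titled library. That is a 371-fold difference (counting interval 343 to 403), and the model ranked 6 and 2926 of the whole table in these libraries. Without it, the scaffold held 5.40% of the remaining sum in the anaerobic-titled library and 2.95% in the other.

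A level of 1000 FPKM was reached by 10 models of scaffold 7 in the anaerobic-titled library and by 5 in the aerobic-titled library. Of the 10, 8 were at least 2-fold higher in the anaerobic-titled library, close to the 100 of 139 (71.9%) over the whole table. The model fgenesh5_pg.C_scaffold_7000392 had 8035 FPKM in the anaerobic-titled library and 1515 FPKM in the aerobic-titled library, 5.31-fold apart (interval 5.09 to 5.53). The model estExt_fgenesh5_pg.C_70277 had 6273 and 2078 FPKM, 3.02-fold apart (2.97 to 3.07), and was the most abundant model of the scaffold in the aerobic-titled library. Both were thus abundant in either library, unlike estExt_fgenesh5_pg.C_70028. Between them in the aerobic-titled library came estExt_Genewise1.C_70089, which had 2077 FPKM in the anaerobic-titled library and 1861 FPKM in the aerobic-titled library.

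The other models that reached 1000 FPKM are given for completeness, as a class picked after the values were seen. The model fgenesh5_pg.C_scaffold_7000357 had 2699 FPKM in the anaerobic-titled library and 102 FPKM in the aerobic-titled one. The models estExt_fgenesh5_pg.C_70483, with 2535 and 965 FPKM, and estExt_fgenesh5_pg.C_70496, with 2088 and 336 FPKM, were also at least 2-fold higher in the anaerobic-titled library. The model fgenesh1_pm.C_scaffold_7000169 had 1022 and 154 FPKM. Of the 11 models that reached 1000 FPKM in a library, only estExt_GeneWisePlus.C_70012 was at least 2-fold lower, with 220.0 FPKM in the anaerobic-titled library and 1156 FPKM in the aerobic-titled one.

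Some abundant models had nearly the same value in both libraries. At 100 FPKM or more in both, the scaffold held 25 models, of which 9 were at least 2-fold higher in the anaerobic-titled library, 6 lower and 10 within 2-fold. Over all 477 models at that level in both, 27.5% were higher and 22.9% lower. The nearest to equality was estExt_GeneWisePlus.C_70535, with 116 FPKM in the anaerobic-titled library and 117 FPKM in the aerobic-titled library, a ratio of 0.991 (interval 0.886 to 1.11). The next were estExt_Genewise1.C_70089, given above, and estExt_fgenesh5_pg.C_70429, with 1004 and 1175 FPKM, a ratio of 0.854 (0.813 to 0.898). Equality of these models holds for FPKM as deposited only: TMM scaling gave all 3 a log2 ratio between 1.93 and 2.32.

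By log2(FPKM + 1) ratio, the highest on the scaffold were estExt_fgenesh5_pg.C_70028, e_gw1.7.274.1 and gw1.7.723.1, while some models near 0 in the aerobic-titled library had larger plain folds. The model e_gw1.7.274.1 stood at 508 FPKM in the anaerobic-titled library and 1.71 FPKM in the aerobic-titled library, from 5523 and 17 reads (297-fold, interval 185 to 510). The model gw1.7.723.1 had 2994 and 17.1 FPKM, from 30573 and 160 reads (175-fold, interval 149.6 to 205). Reads were recovered from the FPKM values as the smallest whole numbers that give them, so small read numbers may be too low by a common factor. No model of scaffold 7 combined 100 FPKM or more in the anaerobic-titled library with less than 1 FPKM in the aerobic-titled library, a state that was rare throughout, with 13 of 8696 models (0.149%) on the other scaffolds.

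In the other direction, the lowest ratios rested on 1 or no read in the anaerobic-titled library. The model estExt_fgenesh5_pg.C_70229 had 0.625 FPKM in the anaerobic-titled library and 219 FPKM in the aerobic-titled library, which is 349.9-fold higher in the aerobic-titled library (interval 62.4 to 13865). The model gw1.7.504.1 was listed at 0 in the anaerobic-titled library and had 64.4 FPKM in the aerobic-titled library. Against the 3 reads that a count of 0 in the anaerobic-titled library allows, its listed level was 65.3-fold higher in the aerobic-titled library. The model e_gw1.7.434.1 had 0.485 and 84.3 FPKM, 174-fold higher in the aerobic-titled library (interval 30.8 to 6911). A level of 10 FPKM or more in the anaerobic-titled library and under 1 FPKM in the aerobic-titled library was less common. It was found for 9 of 433 models on scaffold 7, 50 of 8696 elsewhere and 59 of 9129 over the whole table. The opposite state was found for 22 of 433 models on scaffold 7, 874 of 8696 elsewhere and 896 of 9129 over the whole table.

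Higher models lay more densely in the upper part of the numbering than in the lower part. Coordinates of the models are not used here, so order rests on the number in the name, on the assumption that it follows the position within a track. That assumption is not made for the e_gw1 track, whose numbers largely follow model length. Among fgenesh5_pg models numbered above 260, 29 of 57 (50.9%) were at least 2-fold higher in the anaerobic-titled library and 14 were lower. Among those numbered up to 260, 10 of 52 (19.2%) were higher and 23 lower. On the other scaffolds, 286 of 1713 models of this track (16.7%) were higher, so the lower part was near that share. The median log2 ratio was 1.09 in the upper part and -0.66 in the lower part, 1.75 apart. In the upper part the median levels were 16.0 FPKM in the anaerobic-titled library and 8.03 FPKM in the aerobic-titled library. In the lower part they were 4.53 and 12.4 FPKM, so the upper part was higher in the first of these libraries and lower in the second. Without the 11 models of the runs described below, all in the upper part, the difference was 0.41. It was 0.845 with a split at number 347 and 1.05 with a pseudocount of 5.

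In steps of 100 fgenesh5_pg numbers, the higher models were 3 of 25 up to number 100, 5 of 18 up to 200, 9 of 23 up to 300, 12 of 19 up to 400, 9 of 22 up to 500 and 1 of 2 beyond. Bins of 18, 19 and 2 models are thin, and the 12 of 19 is one of these. The extended estExt_fgenesh5_pg models, which are numbered apart, showed a like order. Above number 255, 10 of 27 were higher, and 5 of 35 up to it. On the other scaffolds, 112 of 1105 models of this track (10.1%) were higher. The medians on scaffold 7 were 0.093 in the upper and -1.61 in the lower part. The highest ratio of the track on scaffold 7, the 8.51 of estExt_fgenesh5_pg.C_70028, nonetheless lay in the lower part.

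The upper part of the fgenesh5_pg track was also richer in models that were near 0 in the aerobic-titled library. Of all 73 fgenesh5_pg models numbered above 260, 20 (27.4%) were under 1 FPKM in the anaerobic-titled library and 27 (37.0%) in the aerobic-titled library. Of the 55 numbered up to 260, 16 (29.1%) and 6 (10.9%) were under 1 FPKM in these libraries. Low models were thus about as frequent in both parts in the anaerobic-titled library only. These shares were not taken on other scaffolds, and they partly restate the contrast above.

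The same division was made on the other scaffolds that had 10 or more compared fgenesh5_pg models in each part. Over these 24 scaffolds, the median of the upper minus that of the lower part ran between -1.74 and 3.97. Scaffold 30, with 11 and 11 models, was the only one above the 1.75 of scaffold 7. In the estExt_fgenesh5_pg track the difference was 1.71 on scaffold 7 and larger on 1 of 16 other scaffolds. In the e_gw1 track, whose numbers largely follow length, the division is not one by position. The difference there was 0.91, with 25 others reaching at most 0.89, but 4 of them were larger in absolute size. In the estExt_GeneWisePlus track the difference was 0.53, with 4 of 19 other scaffolds larger, up to 2.41, and 9 larger in absolute size. By medians the fgenesh1_pm track went the other way, at -0.28. By count, 3 of its 10 models in the upper part and 1 of 9 in the lower part of scaffold 7 were higher. On the other scaffolds, 38 of 402 models of this track (9.45%) were higher. The estExt_fgenesh1_pm track, with only 7 and 5 models on scaffold 7, had a difference of 0.69. The division into an upper and a lower part was chosen after the values were seen.

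**Figure D4:**
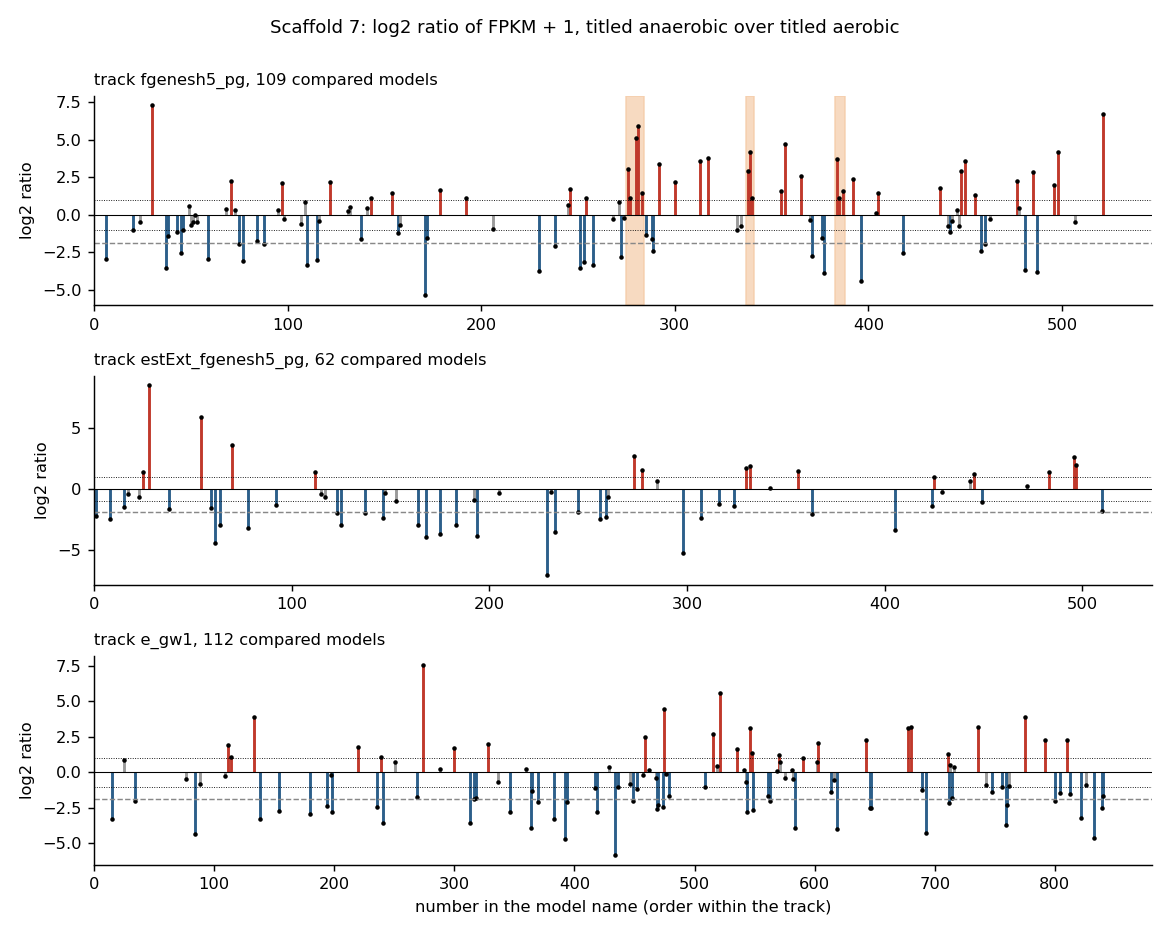
Log2 ratio of FPKM + 1, anaerobic-titled over aerobic-titled, of the compared models of scaffold 7 against the number in the model name, for 3 tracks (109, 62 and 112 models). In the e_gw1 track (112 models), numbers largely follow model length, so they give no position. Red lines are at least 2-fold higher, blue at least 2-fold lower and grey within 2-fold (dotted lines); the dashed line is the median of the other scaffolds, -1.89, and shaded bands mark the 3 runs of higher models, all above number 260 of the fgenesh5_pg track.

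Neighbouring models of scaffold 7 formed 3 runs in which each model was at least 2-fold higher in the anaerobic-titled library. A run was counted when 3 or more compared models of a track followed each other with steps of at most 3 in number. Models of other tracks, and models that were not compared, can lie between the members of a run. The 3 runs held 11 of the 403 compared models (2.73%), and all lay in the fgenesh5_pg track. On 52 other scaffolds there were 4 such runs with 12 of 7794 models (0.154%), each of 3 models and each on a different scaffold. Among these were scaffold 30, with 4.55% of its models in such a run, and scaffold 24, with 2.78%, so the share on scaffold 7 was not the largest. Runs of lower models numbered 5 on scaffold 7, with 15 models (3.72%), against 182 runs with 616 models (7.90%) elsewhere. Single scaffolds lay below that, such as scaffold 21 with 3.62%, scaffold 22 with 2.56% and scaffold 26 with none. No lower run on scaffold 7 exceeded 3 models, whereas the longest elsewhere had 7. Lower runs of scaffold 7 at e_gw1 numbers 313 to 318 and 756 to 760 rest on a numbering that largely follows length. Their models need not be neighbours, and the lower runs elsewhere include e_gw1 runs as well. All shares in runs are over the compared models of every track, e_gw1 included. Since higher models were more frequent on scaffold 7 by choice, more runs of them are not a separate finding. No run was found at a 4-fold threshold, 1 run of 3 models was found with a pseudocount of 5, and TMM scaling gave 12 runs with 42 models. Runs on the other scaffolds were not counted under these settings. TMM scaling also raised the share of higher models on the other scaffolds, from 12.3% to 32.0%.

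The longest run comprised 5 models between numbers 276 and 283, of which 3 were close to silent in the aerobic-titled library. The model fgenesh5_pg.C_scaffold_7000276 had 9.44 FPKM in the anaerobic-titled library and 0.265 FPKM in the aerobic-titled library, from 39 reads and 1 read (35.7-fold, interval 6.03 to 1444). The model fgenesh5_pg.C_scaffold_7000280 had 42.8 and 0.240 FPKM, from 195 reads and 1 read (178-fold, interval 31.6 to 7079). The model fgenesh5_pg.C_scaffold_7000281 had 70.2 and 0.185 FPKM, from 831 and 2 reads (379.9-fold, interval 105 to 3143). These 3 ratios rest on 1 or 2 reads in the aerobic-titled library and have wide intervals. The 2 others were transcribed in both libraries and differed less. The model fgenesh5_pg.C_scaffold_7000277 had 6.34 and 2.45 FPKM (2.59-fold, interval 1.31 to 5.50), and fgenesh5_pg.C_scaffold_7000283 had 81.9 and 29.2 FPKM (2.81-fold, interval 2.15 to 3.70). The run was followed in the numbering of the track by a run of 3 lower models between numbers 285 and 289, with a median log2 ratio of -1.59.

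The second run, numbers 338 to 340, held 3 models with successive numbers and low levels. The model fgenesh5_pg.C_scaffold_7000338 had 7.43 FPKM in the anaerobic-titled library and 0.129 FPKM, or 1 read, in the aerobic-titled library (57.6-fold, interval 9.97 to 2311). The model fgenesh5_pg.C_scaffold_7000339 had 17.6 FPKM in the anaerobic-titled library and was listed at 0 in the other. Against the 3 reads that a count of 0 allows, its listed level was 17.1-fold higher. The model fgenesh5_pg.C_scaffold_7000340 had 16.5 and 7.01 FPKM (2.36-fold, interval 1.82 to 3.09). This was the 1 run on scaffold 7 left when only steps of 1 number were allowed, with 1 such run on the other scaffolds.

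The third run, between numbers 384 and 387, also joined a model listed at 0 in the aerobic-titled library with models transcribed in both. The model fgenesh5_pg.C_scaffold_7000384 had a listed 12.4 FPKM in the anaerobic-titled library, 8.53-fold the level that 0 reads allow in the aerobic-titled library. The model fgenesh5_pg.C_scaffold_7000385 had 29.7 and 13.3 FPKM (2.24-fold, interval 1.55 to 3.29), and fgenesh5_pg.C_scaffold_7000387 had 47.0 and 15.3 FPKM (3.07-fold, interval 2.57 to 3.69). The next compared model of the track was fgenesh5_pg.C_scaffold_7000392, the second most abundant of the scaffold in the anaerobic-titled library, which lies 5 numbers on. It joins the run when steps of up to 5 are allowed, and scaffold 7 then had 4 runs with 15 models, against 10 runs with 32 models elsewhere.

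**Figure D5:**
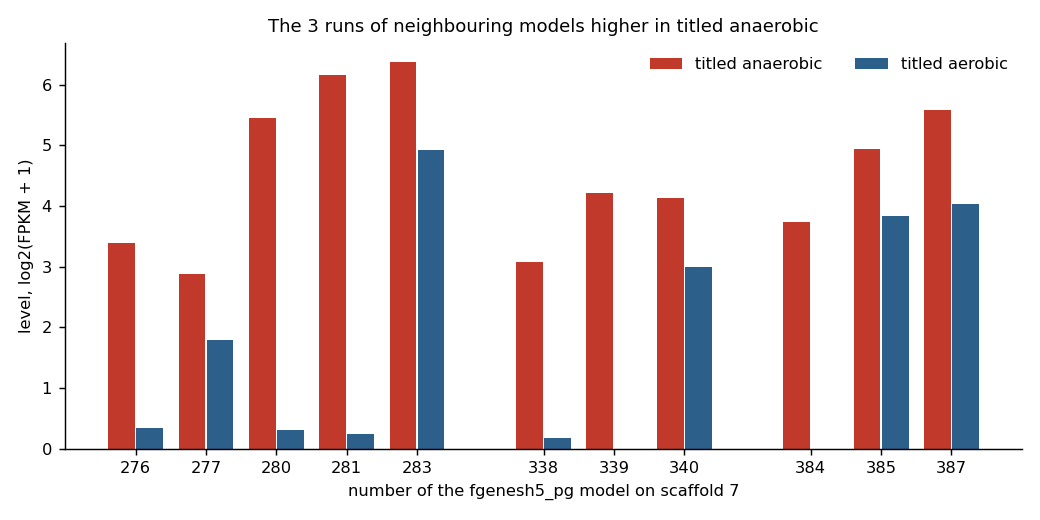
Level, as log2(FPKM + 1), of the 11 gene models in the 3 runs of neighbouring higher models on scaffold 7, in the anaerobic-titled library (red, left bar) and the aerobic-titled library (blue, right bar); numbers are those of the fgenesh5_pg models. Models 339 and 384 have no bar in the aerobic-titled library, where they are listed at 0.

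The lower runs of scaffold 7 each held 3 models, with median log2 ratios between -2.92 and -1.15. The weakest of them, with the median nearest to equality, ran between fgenesh5_pg.C_scaffold_7000043 and fgenesh5_pg.C_scaffold_7000046. The first of these had 0.643 FPKM in the anaerobic-titled library and 2.63 FPKM in the aerobic-titled library, and the last had 0.790 and 2.59 FPKM. Their log2 ratios of -1.15 and -1.005 turned to 0.093 and 0.34 under TMM scaling. Levels in this run were low in both libraries, from 8 and 11 reads in the anaerobic-titled library.

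Neighbours within the fgenesh5_pg track had like ratios more broadly. Over 60 pairs of compared models at most 3 numbers apart on scaffold 7, the log2 ratios correlated at 0.39 (Pearson's r) and 0.37 (Spearman's rho), and over 796 pairs on the other scaffolds with 0.32 and 0.30. These correlations are across model pairs of the same 2 libraries, in which a model can enter 2 pairs, and are given as a description. Both members of a pair were higher in 11 of 60 pairs on scaffold 7 and in 48 of 796 elsewhere. Both were lower in 10 of 60 and 336 of 796, and the members went opposite ways in 6 of 60 and 109 of 796. In the e_gw1 track, where near numbers need not mean near positions, r was 0.15 over 47 pairs on scaffold 7 and 0.043 over 689 pairs elsewhere.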

How the data were processed

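RNA was extracted with Trizol and sequencing libraries were made from 3 micrograms of it, per the labels' protocols. The authors deposited 1 FPKM value per gene model and library, in 1 column per condition, although the series' design text speaks of triplicates. Bowtie2 2.2.3, TopHat2 2.0.12 and HTSeq 0.6.1 are named in the submitters' processing notes, with no role. The genome build, annotation, strandedness and filters were not found in these sources. Columns were matched to samples through their descriptions and grouped by title.

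Ratios were computed on the log2(FPKM + 1) scale for models that reached 1 FPKM somewhere. Whole reads were recovered by finding library sizes that make low FPKM values whole reads over whole lengths: 8887469 for the anaerobic-titled library and 8126938 for the aerobic-titled library. At these, whole lengths came out for 95.0% and 86.5% of the 200 lowest values, and the recovered reads add up to 90.9% and 91.0% of the sizes. Intervals are exact (Clopper-Pearson, 95%) and cover counting error only, because no molecular identifiers are named and reads need not be separate molecules. The median compared model of the scaffold had 92 and 179 reads. TMM scaling used an unweighted mean after trimming 30% of ratios and 5% of levels at either end. Calculations used Python 3.11.15, numpy 2.4.6, pandas 2.3.3, scipy 1.17.1 and numba 0.67.0, and were tested on simulated data.

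Named models are the members of the runs of higher models (up to 5 runs), the ends of the longest lower run (of equal runs, the one with the highest median ratio), the 3 highest and 3 lowest ratios at 10 FPKM or more, the 3 most abundant of each library and the 3 at 100 FPKM or more in both nearest to equality. The members and rules were chosen with earlier results of these data known. No sequences or coordinates of these models were used here.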

Additional observations from a re-analysis of the deposited data

How the results depend on the processing

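The counts of 106 higher and 197 lower models stayed within 1.5 times under the other pseudocounts, both filters, the scaling on models reaching 10 FPKM in both, the scaling without the 100 most abundant models, the count by interval and without the run models. TMM scaling gave 204 higher and 75 lower models, a median log2 ratio of 1.03 in place of -0.93, 12 runs with 42 models and a median level of 38.7 FPKM in the anaerobic-titled library. Runs on the other scaffolds were not counted under TMM scaling. A 4-fold threshold gave 62 higher and 131 lower models and 0 runs with 0 models. Without unextended fgenesh5_pg models, 67 of 294 models (22.8%) were higher, against 11.1% on the other scaffolds. The median log2 ratio was then -1.21, beside -2.01 on the others. There were 0 runs with 0 models, since the runs all lie in that track. The median level in the aerobic-titled library was 26.1 FPKM. The median log2 ratio was also -0.61 with a pseudocount of 5, -0.29 with the scaling on models reaching 10 FPKM in both and -0.40 without the 100 most abundant models. A pseudocount of 5 left 1 run with 3 models, a filter of 10 FPKM left 6 models in runs, neighbours 1 number apart gave 1 run with 3 models, and runs of at least 4 models 1 run with 5. Of 96 values of named models under alternatives, 6 changed sign. Of models past 2-fold these were fgenesh5_pg.C_scaffold_7000043 (0.093) and fgenesh5_pg.C_scaffold_7000046 (0.34), both under TMM scaling. The near-equal estExt_GeneWisePlus.C_70535 and estExt_fgenesh5_pg.C_70429 turned to 2.14 and 1.93 under TMM scaling, and to 0.71 and 0.50 with the scaling on models reaching 10 FPKM in both. The difference between the upper and lower part of the fgenesh5_pg track, with alternatives chosen after seeing the data, lay between 0.41 and 1.95. No paired analysis was possible because there was only 1 library on each side, which also left no replicate to omit. Depth limits the models with 1 to 3 reads in a library, whose folds have wide intervals.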
